A study of Homo sapiens with 30 samples.

Results

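RNF2-only regions are stretches of the human genome with an RNF2 peak in one wild-type CUT&RUN library (RNF2 of set A) and no overlapping or touching peak in the other 3 lists, namely RING1 of set A, RING1 of set B and RNF2 of set B. They were selected on the authors' peak calls: peaks of the 4 lists on chromosomes 1 to 22, X and Y were merged, which gave 19856 regions, and 5848 of these (29.5%) met the rule. Each of the 5848 consisted of a single RNF2 peak, and together they made up 36.0% of the 16263 RNF2 peaks of set A. Fold, significance and width of these peaks come from the same calls that chose them and are given as description only.

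The cells were neural progenitors, derived from the human embryonic stem cell line H9 and kept as a monolayer, in a series of RING1 and RNF2 genotypes. CUT&RUN, in which an antibody directs a nuclease to cut out the DNA around its target, was used to map both proteins. All 4 lists used here came from wild type cells, with 2 libraries for each antibody, and the other libraries among the 30 samples, which cover 5 genotypes and include IgG controls, were not analysed here. The labels do not say whether the replicates came from separate cultures. They also do not tie the file pairs to replicate numbers, so the pairs are called set A and set B.

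RING1 and RNF2 are paralogous E3 ubiquitin ligases, and either can serve as the catalytic subunit of Polycomb repressive complex 1 (PRC1), which attaches a single ubiquitin to histone H2A. Canonical PRC1 holds a CBX protein that reads the methyl mark made by PRC2, while variant PRC1 holds RYBP or YAF2 and reaches chromatin by other routes, including KDM2B binding to unmethylated CpG islands and sequence-specific factors such as E2F6, MAX and MGA. In neural progenitors the best known PRC1 targets are silent developmental regulators, among them the HOX clusters.

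Promoters inside these regions are shown because most of them were CpG-rich and a minority were not, and because the genes include housekeeping and cell division genes. Each line gives the 250 bases before an annotated start (RefSeq, GRCh38.p14), 5′ to 3′ on the strand of the gene, with CG dinucleotides in capitals. The first 4 are among the highest-fold promoters of the set, followed by promoters of a spindle motor gene, a spindle checkpoint gene, a variant PRC1 subunit gene and a recombination gene.
CBR4, chr4:169010256-169010505, strand -: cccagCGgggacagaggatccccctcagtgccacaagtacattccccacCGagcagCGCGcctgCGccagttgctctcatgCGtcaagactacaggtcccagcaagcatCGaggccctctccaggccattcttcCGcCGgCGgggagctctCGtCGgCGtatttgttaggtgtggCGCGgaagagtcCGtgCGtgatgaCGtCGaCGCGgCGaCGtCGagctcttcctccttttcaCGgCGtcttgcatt
RPL36, chr19:5690045-5690294, strand +: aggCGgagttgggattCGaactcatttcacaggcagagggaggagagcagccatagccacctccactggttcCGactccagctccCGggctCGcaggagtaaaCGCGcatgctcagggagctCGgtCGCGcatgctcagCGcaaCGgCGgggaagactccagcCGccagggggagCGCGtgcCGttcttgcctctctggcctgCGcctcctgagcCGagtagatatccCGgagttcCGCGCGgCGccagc
ABCC5, chr3:184017885-184018134, strand -: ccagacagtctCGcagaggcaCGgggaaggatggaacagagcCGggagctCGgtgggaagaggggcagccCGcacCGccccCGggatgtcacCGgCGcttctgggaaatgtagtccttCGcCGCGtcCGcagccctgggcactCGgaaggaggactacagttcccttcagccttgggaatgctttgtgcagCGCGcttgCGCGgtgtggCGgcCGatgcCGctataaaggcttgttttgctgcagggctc
DTX4, chr11:59171180-59171429, strand +: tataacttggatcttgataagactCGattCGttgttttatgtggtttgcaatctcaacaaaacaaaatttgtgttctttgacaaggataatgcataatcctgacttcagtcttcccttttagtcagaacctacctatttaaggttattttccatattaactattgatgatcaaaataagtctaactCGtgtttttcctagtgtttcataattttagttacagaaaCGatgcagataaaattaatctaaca
KIF11, chr10:92592880-92593129, strand +: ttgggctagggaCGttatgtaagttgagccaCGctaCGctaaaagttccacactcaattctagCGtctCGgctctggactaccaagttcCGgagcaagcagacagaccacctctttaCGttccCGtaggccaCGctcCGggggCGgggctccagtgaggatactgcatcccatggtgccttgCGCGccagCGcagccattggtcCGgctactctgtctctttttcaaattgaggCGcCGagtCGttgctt
MAD1L1, chr7:2232946-2233195, strand -: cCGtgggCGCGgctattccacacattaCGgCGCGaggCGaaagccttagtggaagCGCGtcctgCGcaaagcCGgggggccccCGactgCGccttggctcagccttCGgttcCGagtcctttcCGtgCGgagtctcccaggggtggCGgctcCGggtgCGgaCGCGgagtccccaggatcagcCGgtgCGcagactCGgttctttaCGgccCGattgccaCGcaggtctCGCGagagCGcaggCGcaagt
L3MBTL2, chr22:41205062-41205311, strand +: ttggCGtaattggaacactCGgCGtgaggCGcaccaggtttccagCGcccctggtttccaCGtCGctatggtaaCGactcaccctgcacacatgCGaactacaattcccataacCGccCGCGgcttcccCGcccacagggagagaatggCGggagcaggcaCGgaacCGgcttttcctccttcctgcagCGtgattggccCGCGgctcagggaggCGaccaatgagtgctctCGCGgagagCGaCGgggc
RAD52, chr12:990042-990291, strand -: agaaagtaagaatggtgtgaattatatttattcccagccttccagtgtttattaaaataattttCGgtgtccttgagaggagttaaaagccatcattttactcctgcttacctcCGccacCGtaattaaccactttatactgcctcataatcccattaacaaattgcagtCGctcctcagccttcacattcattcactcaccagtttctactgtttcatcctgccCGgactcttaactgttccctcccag

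CBR4, which encodes a mitochondrial carbonyl reductase, had 26 CG dinucleotides in this window and an observed over expected CpG ratio of 1.06. The RNF2 peak over it had a fold enrichment of 6.20, where fold is the authors' ratio of signal over background for that peak. RPL36 encodes a protein of the large ribosomal subunit, and its window held 24 CG dinucleotides and 2 copies of the NRF1-type motif GCGCATGC, under a peak of 5.86-fold. ABCC5, an efflux transporter gene, had 21 CG dinucleotides and a TATAAA match close to the start, under a peak of 5.87-fold. The promoters of KIF11 and MAD1L1 held 18 and 32 CG dinucleotides. L3MBTL2, whose product is a subunit of a variant PRC1, had 24 CG dinucleotides and 3 CCAAT boxes counted on both strands. The windows of DTX4, a Deltex-type ubiquitin ligase gene, and RAD52, a recombination mediator gene, were of another kind: they were 30.4% and 41.2% G and C, with 4 and 5 CG dinucleotides. The RAD52 window precedes a start inside the gene (chr12:911736-991122). The peak there (chr12:989920-991967) also covers the 5′ end of the gene, whose sequence is not shown. Peaks over DTX4 (5.84-fold) and RAD52 (4.06-fold) covered 2314 and 2048 bp, both far above the median width of the set.

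The RNF2-only regions were spread over promoters, bodies of coding genes and sequence outside coding genes. A position counted as a start where the RefSeq promoter table lists one, which was the case for 15843 of 20037 protein-coding genes (79.1%). Of the 5848 regions, 1580 (27.0%, 95% exact binomial interval 25.9 to 28.2%) contained an annotated start of any gene. A further 1467 (25.1%) lay within 2 kb of an end of a coding or lncRNA gene or of a listed start, 1280 (21.9%) lay deeper inside a coding gene, and 1521 (26.0%) lay elsewhere. These intervals, and those below, cover counting error only, and regions of 1 library are not replicates. Regions with RNF2 and RING1 of set A but nothing in set B (6109 regions) contained a start in 60.2% of cases and lay elsewhere in 9.77%. RNF2 regions of both sets without RING1 (407 regions) contained a start in 57.2%, and RNF2 regions of set B alone (1323 regions) in 5.90%. Regions with RING1 of set A alone (2238 regions) contained a start in 11.4% and lay elsewhere in 27.7%. In these lists the RNF2-only share with a start lay between those of the RING1-only regions and of the regions with both proteins of set A. Median width had the same order (341, 579 and 1159 bp), and its part in these shares was not tested.

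**Figure D1:**
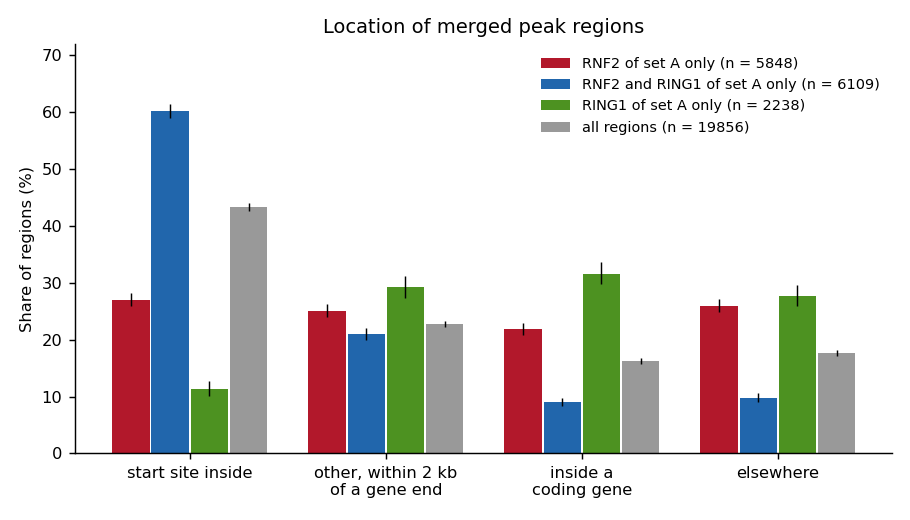
Share of regions (%, vertical axis) in 4 exclusive locations for the RNF2-only regions, 2 comparison groups and all 19856 merged regions; bars are shares and lines are 95% exact binomial intervals (counting error only). The RNF2-only regions fall into the 4 locations in nearly even shares (21.9 to 27.0%), while 60.2% of the regions with both proteins of set A contain a start.

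Counted by coding genes only, at either annotated end, 2375 RNF2-only regions (40.6%, interval 39.3 to 41.9%) lay within 2 kb, against 54.6% of all regions and 68.4% of the regions with both proteins of set A. RNF2 regions found in both sets without RING1 (407 regions) lay there in 71.7% of cases, and RNF2 regions of set B alone (1323 regions) in 14.8%. Near an end of an lncRNA gene lay 956 RNF2-only regions (16.3%), against 20.7% of all regions. Such sites were rare in both groups for small RNA genes. Within 2 kb of a tRNA gene lay 24 (0.410%, against 0.760% of all regions), of a miRNA gene 42 (0.718%, against 1.46%) and of a snoRNA gene 12 (0.205%, against 0.458%). By chromosome, the RNF2-only share of all merged regions ran from 23.5% on chromosome 19 to 35.2% on chromosome 5.

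The peaks were low and narrow. Fold enrichment had a median of 3.56 (quartiles 3.35 and 3.91, range 2.85 to 7.69), and only 122 peaks reached 5-fold and 16 reached 6-fold. RNF2 peaks of set A in the regions shared with RING1 of set A had a median of 4.23, those found in both sets without RING1 3.81, and those in regions of all 4 lists 11.0. The significance value, −log10 of the q-value, had a median of 1.91, and 3176 peaks (54.3%) were below 2 in lists whose lowest values lie just above 1. Most of these peaks therefore sat close to the limit of the list, and 87 (1.49%) had a value of at least 5. Width had a median of 579 bp (quartiles 369 and 937), against 1159 bp for regions shared with RING1 of set A, 341 bp for RING1-only regions and 16907 bp for regions of all 4 lists. The regions containing a start were the highest and widest of the set by median, at 3.70-fold and 771.5 bp. Those inside a gene were at 3.49-fold and 481 bp.

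Promoter and distal RNF2 peaks of like height differed in how often they stood alone. Among RNF2 peaks of set A between 3.5-fold and 4-fold, 604 of 1826 peaks containing a start (33.1%, interval 30.9 to 35.3%) were RNF2-only, against 1000 of 1424 peaks (70.2%) over 2 kb from any start and any coding or lncRNA gene end. The share fell with height in both places, from 62.5% to 0.176% at starts and from 88.7% to 3.23% at distal peaks between the lowest bin (up to 3.25-fold) and the highest (above 7-fold). Over all heights, 1580 of 7954 peaks at starts (19.9%) and 2801 of 4420 distal peaks (63.4%) were RNF2-only. In bins of peak width the order was the same, from 58.5% against 89.6% in the narrowest to 4.34% against 16.7% in the widest. Fold and width are part of the calls that define the set, so the fall with height describes the rule as well as the regions.

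**Figure D2:**
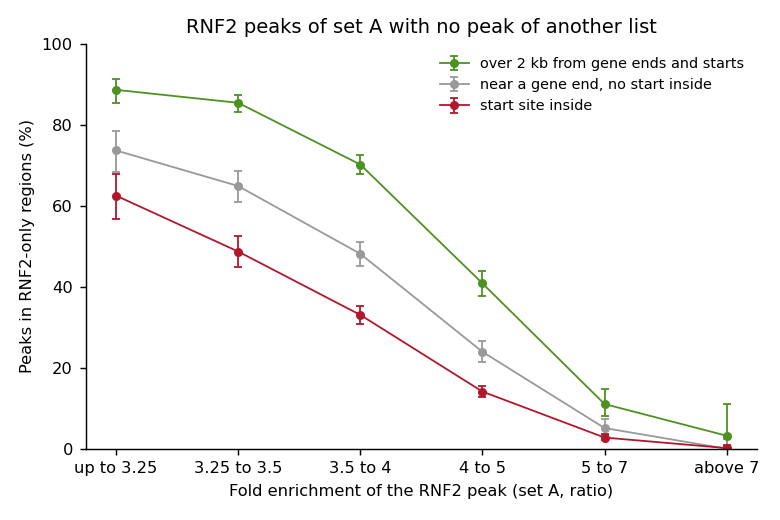
Share of RNF2 peaks of set A with no peak of another list (%, vertical axis) by fold enrichment of the peak (horizontal axis, 6 bins), for peaks containing a start, peaks near a gene end and distal peaks; bars are 95% exact binomial intervals (counting error only). In the 3.5 to 4 bin 33.1% of peaks at starts and 70.2% of distal peaks stand alone.

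Position at starts was measured only in regions containing a start and from the start nearest the centre, so short offsets follow from this choice. The centre of the region lay a median of 31.25 bp downstream of the nearest start (quartiles −95.6 and 146 bp), and the region reached a median of 348.5 bp upstream and 384 bp downstream. The median offset was 14.75 bp for regions with both proteins of set A only and 16.5 bp for RING1-only regions. In 269 of 1580 regions starts of both strands lay inside the region, as at divergent gene pairs. The same was true of 881 of 3680 regions with a start that were shared with RING1 of set A, which are also wider.

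Distance to RING1 is given as description only, since the rule removes every region that touches a RING1 peak. The distance from an RNF2-only region to the nearest RING1 peak of either set, edge to edge, had a median of 40.7 kb (quartiles 9.46 and 124 kb), and it is at least 1 bp by the rule. Of the 5848 regions, 198 lay within 1 kb of a RING1 peak, 1011 (17.3%) within 5 kb, 4082 (69.8%) within 100 kb, and 72 lay over 1000 kb away. The regions at starts were the farthest by median (59.2 kb), and 8.67% of them lay within 5 kb of RING1. Of the regions elsewhere, outside coding genes and away from coding and lncRNA gene ends, 21.6% lay within 5 kb, with a median of 29.2 kb. The nearest RING1 peak belonged to a region shared by RNF2 and RING1 of set A alone for 2835 regions (48.5%), and to a RING1-only region for 1128 (19.3%). These shares go with how common the kinds are: the merged regions hold 6109 of the first and 2238 of the second. A further 3543 have RNF2 of both sets and RING1 of set A. The RNF2 regions of set B alone had a median of 67.4 kb to RING1, and those of both sets without RING1 62.8 kb. Both medians were longer than the 40.7 kb of the RNF2-only regions.

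**Figure D3:**
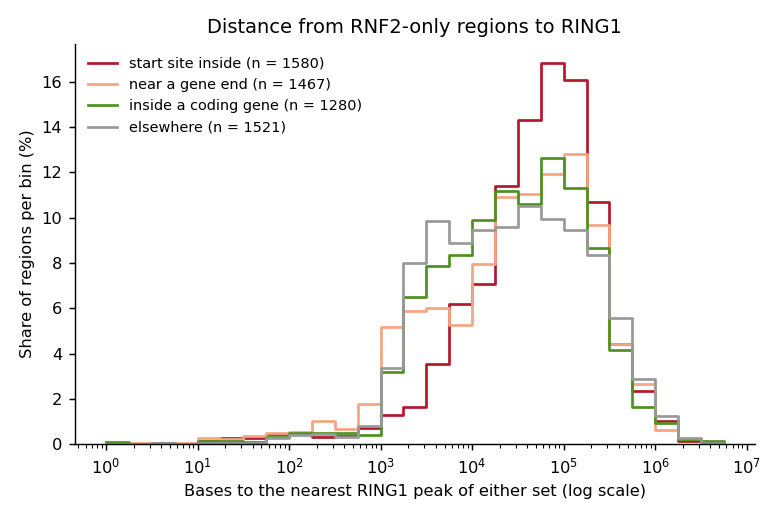
Distance from each RNF2-only region to the nearest RING1 peak (bases, log scale, horizontal axis) as the share of regions in each bin (%, vertical axis), 1 line for each location. Regions containing a start have the longest median (59.2 kb), and the lines of the other 3 locations reach further to the left, below 10000 bases.

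Regions at the edges of the rule differed little in height. The 31 RNF2-only regions within 50 bp of a RING1 peak had a median of 3.5-fold (3.10 to 4.61), and the 46 RNF2 peaks left out for an overlap of at most 50 bp had 3.60-fold (2.94 to 5.01). Among the closest were a region at SELENOM, a selenoprotein gene, 3 bp from RING1 and a region at the start of the lncRNA NOVA1-DT, 5 bp from it. The farthest region lay on the X chromosome. Another on that chromosome, at the start of TMEM47, a membrane protein gene, was 4.12-fold and 3670 kb from RING1.

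The strongest peaks of the set were a mixture of gene starts and other sites inside and outside coding genes. The highest, at 7.69-fold, lay at chr9:62851730-62852217 (hg38) outside coding genes, and another of the 10 highest, at 6.31-fold, lay at chr9:62828117-62829347. Each was within 5 kb of a RING1 peak (3.86 and 4.68 kb), and how uniquely reads map at these neighbouring sites was not tested. A region outside coding genes, 120 kb from LONRF1 on chromosome 8, followed at 7.28-fold. ATPAF1, an assembly factor of the mitochondrial ATP synthase, had a 7.06-fold peak of 369 bp at a start, 50.2 kb from RING1. A 6.54-fold peak lay inside EBF1, which encodes a transcription factor of neuronal and B cell differentiation, 47.3 kb from the nearer end of the gene. PIK3CD, a catalytic subunit gene of phosphoinositide 3-kinase, had a 6.44-fold peak at an annotated start 24.1 kb from the nearer end of the gene. Other gene ends with strong peaks were BCCIP, which encodes a BRCA2-binding protein (6.17-fold, 661 kb from RING1), NCOA4, the ferritin receptor of autophagy (6.09-fold), and CENPF, a kinetochore gene (6.04-fold). NEDD4L, a ubiquitin ligase gene (5.98-fold), and IGFBP4, which encodes a binding protein of insulin-like growth factors (5.85-fold), were close behind.

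Of the 5 widest RNF2-only regions, 1 contained the start of a noncoding gene, 2 were near a gene end, 1 lay deeper inside a gene and 1 lay elsewhere. A region of 9607 bp with a 4.52-fold peak lay inside NFIA, a transcription factor gene of neural and glial development, 219 kb from RING1. SKAP1, a T cell adaptor gene, held a region of 6215 bp (3.90-fold), over the start of SKAP1-AS2, and another of 4781 bp (4.87-fold), with RING1 11.4 and 8.76 kb away. A region of 5888 bp lay 231 kb from SEMA3C, a secreted axon guidance gene, and one of 5563 bp inside HIBADH, an enzyme of valine breakdown. These stood apart from the rest, as 195 of the 5848 regions (3.33%) reached 2 kb and 4 reached 5 kb.

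Of 20037 protein-coding genes, 2758 had an RNF2-only region within 2 kb of an end, a background of 13.8%. For the regions with both proteins of set A alone it was 24.9%, and for any region with RING1 46%. Of the 2758 genes, 2272 (82.4%) had no RING1 region at either end, and 486 had one in addition to the RNF2-only region. The 39 gene lists were read against this background, and the 10 lists with the highest shares were of cell division, transcription, translation, mitochondria, the p53 response, break repair, the proteasome and variant PRC1. With 13 to 509 genes in a list the intervals are wide, and for most lists they include 13.8%.

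Cell division and DNA metabolism genes had shares above 13.8%, with intervals that include it for all of these lists but mitosis and cohesin. Of 46 mitosis and cohesin genes, 13 had an RNF2-only region (28.3%, interval 16.0 to 43.5%), and none of the 13 had RING1 at an end. They included CENPF, with the 6.04-fold peak above, the cohesin cofactor gene PDS5B (3.83-fold), the mitotic kinase gene AURKA (3.80-fold) and the spindle motor gene KIF11 (3.62-fold). Of 51 DNA replication and licensing genes, 10 had such a region (19.6%, interval 9.82 to 33.1%), all without RING1 at an end. Among these, GMNN, the licensing inhibitor geminin, carried a 5.14-fold peak, POLA2, a subunit gene of DNA polymerase alpha, a 5.05-fold peak, and LIG1, the replicative DNA ligase, a 4.46-fold peak. Of 66 genes of double-strand break repair, 14 (21.2%, interval 12.1 to 33.0%) carried one, 13 of them without RING1. RAD51B (4.46-fold) and RAD52 (4.06-fold) act in homologous recombination, and RNF168 (4.02-fold) encodes a ubiquitin ligase that modifies H2A at breaks. Among 31 genes of the p53 response, 7 carried one (22.6%, interval 9.59 to 41.1%), none with RING1, including MDM4, an inhibitor of p53 (4.25-fold), and the nucleotide excision repair genes XPC (4.19-fold) and DDB2 (3.86-fold). Any RING1 region was at an end of 64.5% of p53 response, 63.6% of break repair and 62.7% of replication genes, against 46% of all genes. Regions with both proteins of set A alone were at 41.9%, 54.5% and 39.2% of them, against 24.9%. For these lists a raised share was thus not particular to RNF2-only regions. Mitosis and cohesin genes had 43.5% and 21.7%. With every list limited to a −log10 q of at least 2, the background over all genes was 16.0%. Mitosis and cohesin then had 9 of 46 (19.6%), close to that background, and the p53 response 11 of 31 (35.5%).

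Most lists of the expression and energy machinery had shares between 20.5 and 25.6%, and others were near the background of 13.8%. In that range only mitochondrial ribosomal proteins had an interval above 13.8% among these lists. The intervals include it for cytosolic ribosomal proteins (12.9 to 31.0%) and for RNA polymerase II and mediator (13.5 to 41.2%). They also include it for complex I, the aminoacyl-tRNA synthetases and the proteasome. Mitochondrial ribosomal protein genes had an RNF2-only region in 19 of 77 cases (24.7%, interval 15.6 to 35.8%), as at MRPL21 (4.59-fold) and MRPL44 (4.10-fold). Cytosolic ribosomal protein genes had one in 18 of 86 cases (20.9%), as at RPL36 (5.86-fold) and RPL5 (5.09-fold). For RNA polymerase II and mediator it was 11 of 43 (25.6%), as at MED29 (4.71-fold) and POLR2G (4.33-fold). Respiratory complex I and the aminoacyl-tRNA synthetases each had 8 of 37 (21.6%), and the proteasome had 8 of 39 (20.5%). Splicing factor genes had 6 of 45 (13.3%) and housekeeping genes 6 of 39 (15.4%). In the 2 lists of 37 and in the proteasome no gene with an RNF2-only region had RING1 at an end. Any RING1 region was at 45.9% of complex I, 48.6% of synthetase and 46.2% of proteasome genes, near the 46% of all genes. The large ZNF family of zinc finger genes had 90 of 509 (17.7%, interval 14.5 to 21.3%), 80 of them without RING1, led by ZNF628 and ZNF383 (both 5.60-fold). Neighbouring ZNF genes shared some regions, since the highest-fold RNF2-only regions of these 90 genes came to 87 distinct regions.

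Of the lists of Polycomb genes, only variant PRC1 was above the background of 13.8%, and its interval includes that value. Of 28 variant PRC1 subunit genes, 7 had one (25%, interval 10.7 to 44.9%), 3 of them without RING1 at an end. They included L3MBTL2 (4.73-fold), the deubiquitinase gene USP7 (4.14-fold), the histone deacetylase gene HDAC1 (4.05-fold) and SKP1, which encodes a ubiquitin ligase adaptor (3.73-fold). Of 15 canonical PRC1 genes, CBX6 (3.51-fold) and PHC1 (3.17-fold) had one (13.3%), and 1 gene did with every list limited to a −log10 q of at least 2. Of 22 PRC2 and H2A deubiquitinase genes, 3 did (13.6%), among them ASXL3, a cofactor gene of the deubiquitinase BAP1 (4.74-fold), and SUZ12, a core PRC2 subunit (3.74-fold).

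HOX, T-box and other homeobox genes rarely carried an RNF2-only region, while SOX genes were near the background of 13.8%. None of the 39 HOX genes had one (interval up to 9.03%), and all 39 had a RING1 region at an end. None of 16 T-box genes had one (interval up to 20.6%), and 15 had RING1. Among 118 other homeobox genes 4 had one (3.39%, interval 0.931 to 8.45%) and 111 had RING1. The 4 were DLX4 (4.03-fold), CDX4 (3.45-fold), LHX2 (3.25-fold) and MEIS3 (3.24-fold), and none of the 4 peaks contained a start. Of 32 neural bHLH and Notch effector genes, ID2 (4.01-fold) and NEUROD1 (3.64-fold) had one, beside RING1 regions at the same genes. Of 43 forkhead genes 2 had one (4.65%), and 4 did with every list limited to a −log10 q of at least 2. Of 19 SOX genes, 3 had one (15.8%): SOX30 (3.55-fold), SOX4 (3.5-fold) and SOX12 (3.22-fold), of which SOX12 also had RING1 at an end. Where RING1 covers a gene's ends the rule leaves little room for an RNF2-only region, so these low counts partly restate the rule.

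Gene families with few regions of any kind were low for RNF2-only regions too. Olfactory receptor genes had 2 of 392 (0.510%) with RING1 at 0.510%, and keratin genes had 1 of 149 (0.671%). The neuronal lists named next had shares on both sides of 13.8%, and their intervals all include it. Neurotransmitter receptor genes had 9 of 79 (11.4%), all without RING1, including GABRE (4.49-fold), a GABA receptor subunit, and GRIN2B (4.04-fold), an NMDA receptor subunit. Axon guidance genes had 6 of 69 (8.70%), including SLIT1 (3.88-fold) and ROBO2 (3.76-fold), a ligand and a receptor of the same pathway. Of 20 neuron markers, 4 had one (20%): SLC17A7, SYT1, ELAVL4 and SYN1, at 3.24-fold to 3.80-fold, and with every list limited to a −log10 q of at least 2 the count was 2. Of 20 neural progenitor markers, MSI1 (3.37-fold) and LHX2 had one and 15 had RING1. Peaks do not measure expression, so the labelled cell type could not be checked against its markers.

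**Figure D4:**
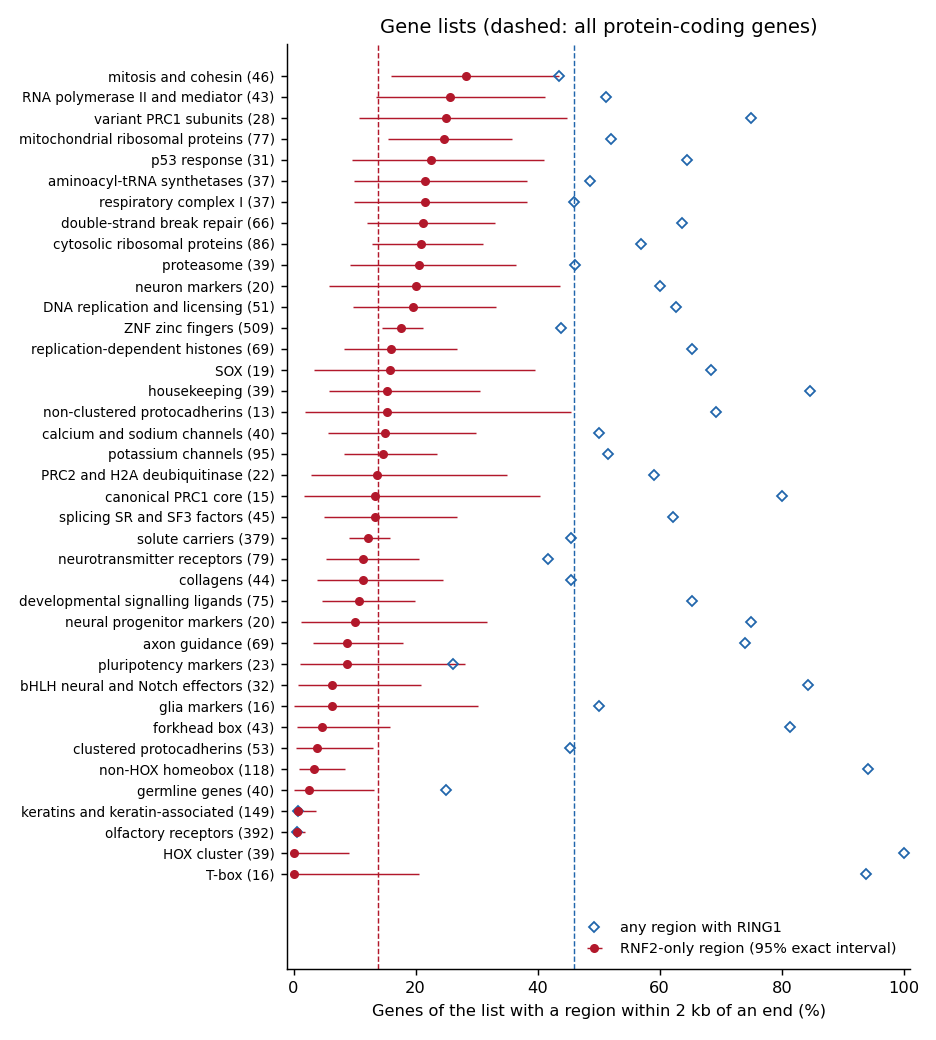
Share of genes (%, horizontal axis) with an RNF2-only region (circles with 95% exact binomial intervals, counting error only) or any region with RING1 (diamonds) within 2 kb of an end, for 39 lists with their gene numbers; dashed lines mark all protein-coding genes at 13.8% and 46%. Mitosis and cohesin genes have the highest share for RNF2-only regions (28.3%), a rank not kept with every list limited to a −log10 q of at least 2 (19.6%, under 35.5% for the p53 response), and HOX genes are at 0 with RING1 at all 39.

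Coding starts inside the RNF2-only regions were mostly CpG-rich. The 1766 such starts, in 1438 regions and of 1532 genes, had a median of 66% G and C over 300 bases around the start and a median observed over expected CpG ratio of 0.845. By a limit of over 50% G and C and a ratio over 0.6, 85.3% (interval 83.6 to 87.0%) were CpG-rich. This lay between starts in regions of RNF2 and RING1 of set A alone (89.9%) and starts in RING1-only regions (78.8%), and far above starts with no region (33.3%). The other 259 starts (14.7%) were not CpG-rich, as at DTX4 and the start inside RAD52 in the sequences printed above.

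**Figure D5:**
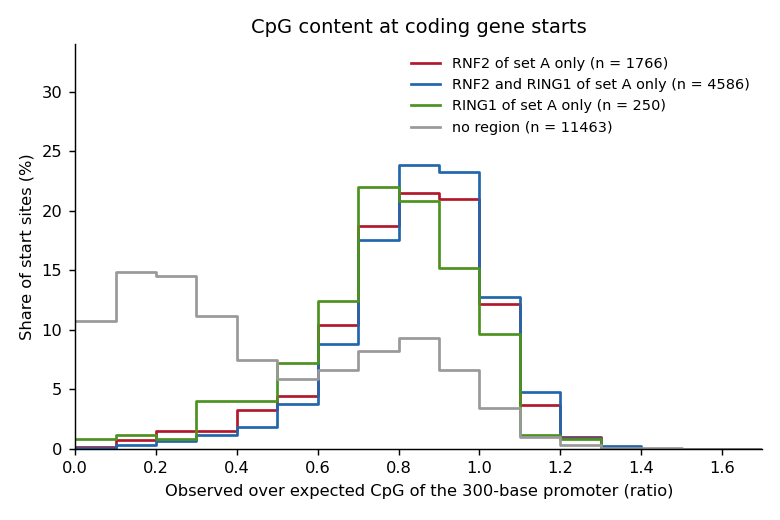
Observed over expected CpG ratio of the 300 bases around coding starts (horizontal axis) as share of starts (%, vertical axis), for starts in RNF2-only regions (n = 1766), in both comparison groups and in no region. Starts in RNF2-only regions centre near the median of 0.845, and most starts with no region lie to the left of them (median 0.390).

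Short motifs were counted in the same 300 bases on both strands. CGCG was present in 85.3% of starts in RNF2-only regions, against 62.3% of all coding starts and 88.5% of starts in regions of RNF2 and RING1 of set A. The ETS-type motif CCGGAAG was found in 22.3%, against 12.8% of all starts and 17.7% of the shared regions, and it was more frequent still in starts of RING1-only regions (28.4%). In those RING1-only starts (n = 250) the other motifs stood at 81.2% for CGCG, 3.2% for GCGCATGC, 2.8% for AAGATGGCG, 6.4% for GCGGGAA, 7.2% for CACGTG, 34.8% for CCAAT and 4.4% for TATAAA. The NRF1-type GCGCATGC was found in 6.68%, against 3.74% and 6.11%, and the YY1-type AAGATGGCG in 4.13%, against 2.41% and 4.14%. The E2F-type GCGGGAA was found in 10.8%, against 8.13% and 11.4%, and the E-box CACGTG in 9.29%, against 8.34% and 12.1%. Both of the remaining motifs were less frequent than among all starts: CCAAT in 30.5% against 34.7%, and TATAAA in 5.04% against 9.47%. The groups of starts differ in base composition, and its part in these shares was not tested. CCGGAAG was found in 6.65% of starts in regions of all 4 lists (77.2% CpG-rich) and in 9.27% of starts with no region (33.3% CpG-rich). For RNF2 of both sets it was 16.2% without RING1 (90.9% CpG-rich) and 12.6% with RING1 of set A (89.0% CpG-rich). Starts in regions with RNF2 of set B alone (n = 68) had it in 16.2% (79.4% CpG-rich). A match is a short run of letters and not a measured site.

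The set depends on where each peak list ends. The authors' consolidated file of 4255 regions holds regions called in both sets, so the rule keeps the 5848 regions out of it. None overlapped it, and the same was true of regions with both proteins of set A only, RING1 of set A only and RNF2 of set B only. Of the 5848 regions, 21 lay within 1 kb of the file's regions. When every list was limited to a −log10 q of at least 2, 4636 regions were RNF2-only, 2672 of them (57.6%) from the set described here; 58.0% were at a coding gene end and the median distance to RING1 was 71.8 kb. At a limit of 5 the number was 1719, only 87 of which (5.06%) belonged to the set, with 77.5% at a gene end, 260 kb to RING1 and 1723 genes. Under the stricter limits peaks of RING1 and of RNF2 of set B leave the lists as well, so RNF2 peaks of set A with a weak partner there can enter the set. Which partners were lost was not counted. An RNF2-only call is the absence of a listed RING1 peak, and the signal below the limit of the lists was not analysed here.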

How the data were processed

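CUT&RUN peak lists of 4 wild-type libraries (2 per antibody) were used; totals of reads were not used here, so the depth behind each peak is unknown. MACS2 2.2.9.1, Picard 2.8.1, deepTools 3.5.2, BWA 0.7.17, bedtools 2.30.0, SAMtools 1.9 and build hg38 are named in the submitters' processing notes, without roles. Lists hold 12891 and 659 (RING1, sets A and B) and 16263 and 5901 (RNF2) peaks. The deposited fold per peak is the authors' ratio over background, and the deposited −log10 value is that of the q-value, limited at about q = 0.1. Options and control of the peak calling were not given in the sources used here. Other deposited score columns were not used. Peak positions, in other columns, were deposited as start and end by the authors; printed starts count from 1.

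Peaks were merged in Python 3.11.15 with numpy 2.4.6 and pandas 2.3.3 where they overlapped or touched; intervals are Clopper-Pearson (SciPy 1.17.1), and the merging and distance code was tested on simulated data. Genes, starts and promoter sequences are RefSeq GRCh38.p14. Named are the nearest coding genes of the 10 highest-fold regions (also of the 10 highest at gene ends), the 5 widest, the 5 nearest to and the 5 farthest from RING1, and up to 4 genes per list by fold; some regions are named by a coding gene beyond 2 kb, an addition made after their values were seen. Printed promoters are a choice from the 6 of highest fold and up to 2 per list. Members, lists and motifs were chosen with earlier results of these data known, and no test was run. Alternatives were other limits of q, merging distance, overlap, window, and lists without set B. One result is not reported here.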

Additional observations from a re-analysis of the deposited data

How the results depend on the processing

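The number of RNF2-only regions stayed within 1.5 times of 5848 under every alternative but the limit of −log10 q of at least 5, where it was 1719 with 1723 genes, 77.5% at a gene end and a median of 260323 bp to RING1. At a limit of 2 the share at a gene end was 58.0% and the distance 71769.5 bp. The distance was 44445.5 bp with peaks within 1 kb merged and 35732 bp with an overlap of 50% of the shorter peak required. The share at a gene end was 42.6% without set B, 37.2% in a window of 1 kb and 48.2% in one of 5 kb. Gene list counts were recomputed in 2 ways chosen after seeing the data: without set B, 37 of 39 lists stayed within 1.5 times (collagens and germline genes did not), and at a q limit of 2, 27 did. At that limit replication-dependent histones had 18 genes in place of 11, p53 response genes 11 in place of 7, and neuron markers 2 in place of 4. Olfactory receptors went from 2 to 1, keratins from 1 to 0 and forkhead genes from 2 to 4. Mitosis and cohesin (9 in place of 13) and HOX (0) stayed within that bound, while the background over all genes went from 13.8 to 16.0%. No paired analysis was possible because the results come from no test and the file names tie no list to a replicate number. The depth is unknown, and the set rests on 1 library: signal of RING1 or of set B below the limits of their lists was not analysed.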
